A study of Mus musculus with 6 samples.

Results

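The genes described here are the glutathione, peroxiredoxin and thioredoxin redox genes of the mouse, measured by RNA-seq in corneas of mice with a mutation of Pax6 and of wildtype mice. They were picked out by name, with no measured value in the rule, although the set was proposed with earlier results of these data known. It holds every protein-coding gene of the glutathione S-transferase, glutathione peroxidase, peroxiredoxin, superoxide dismutase, thioredoxin reductase and glutaredoxin families, together with Txn1, Txn2, Txnip, Gclc, Gclm, Gss, Gsr, Cat, Srxn1, Nqo1, Hmox1, Nfe2l2 and Keap1. This gave 63 genes of 55421 listed and of 21976 listed protein-coding genes. The mutant group was 3 corneal libraries from mice heterozygous for a Pax6 mutation (M1 to M3), and the wildtype group was 3 corneal libraries from mice without it (W1 to W3), all at 20 weeks of age. The labels name no allele, strain or treatment, and do not say how many corneas or animals stand behind a library. The series design calls the libraries biological replicates. If they did not come from separate animals, the p-values measure only the spread between these samples.

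Cells keep hydrogen peroxide, lipid peroxides and reactive aldehydes low with thiol systems that draw on NADPH. Glutathione is built by glutamate-cysteine ligase and glutathione synthetase, spent by glutathione peroxidases and glutathione S-transferases, and returned to its reduced form by glutathione reductase. Peroxiredoxins take electrons from thioredoxin, which thioredoxin reductases recharge, and sulfiredoxin rescues peroxiredoxins that have been overoxidised. NRF2, the transcription factor encoded by Nfe2l2 and held in check by KEAP1, drives many of these genes. The corneal surface lies under light, air and tears, and its epithelium holds large amounts of several soluble enzymes. Pax6 encodes the transcription factor that sets corneal epithelial identity, and people with a single working copy develop aniridia with a corneal disease, the keratopathy named in the series title.

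Of the 63 genes, 53 had enough counts to be tested. Against wildtype corneas, 6 rose in mutant corneas and 3 fell at an adjusted p under 0.05 in edgeR's quasi-likelihood test, adjusted over all 15209 tested genes. Those that rose were Sod3, Txnrd1, Glrx, Srxn1, Gsto1 and Gss, by 1.56-fold to 4.20-fold. Those that fell were Prdx6, Txnrd3 and Gsta2, by 1.79-fold to 3.61-fold. The called share was 17.0% of the tested redox genes, against a background of 10.1% of all tested genes. By direction it was 11.3% higher, against a background of 5.59%, and 5.66% lower, against a background of 4.46%. The share of redox genes whose mutant and wildtype libraries did not overlap was 50.9%, 27 of 53, against 31.9% of all tested genes. Of these 27, 14 were higher and 13 lower in mutant corneas, where the background was 17.1% higher and 14.7% lower. The median log2 fold change (mutant minus wildtype) was 0.13 over the tested redox genes and 0.0095 over all tested genes, with 28 redox genes on the positive side and 25 on the negative. That median was -0.06 without W1, so its sign rests on W1.

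**Figure D1:**
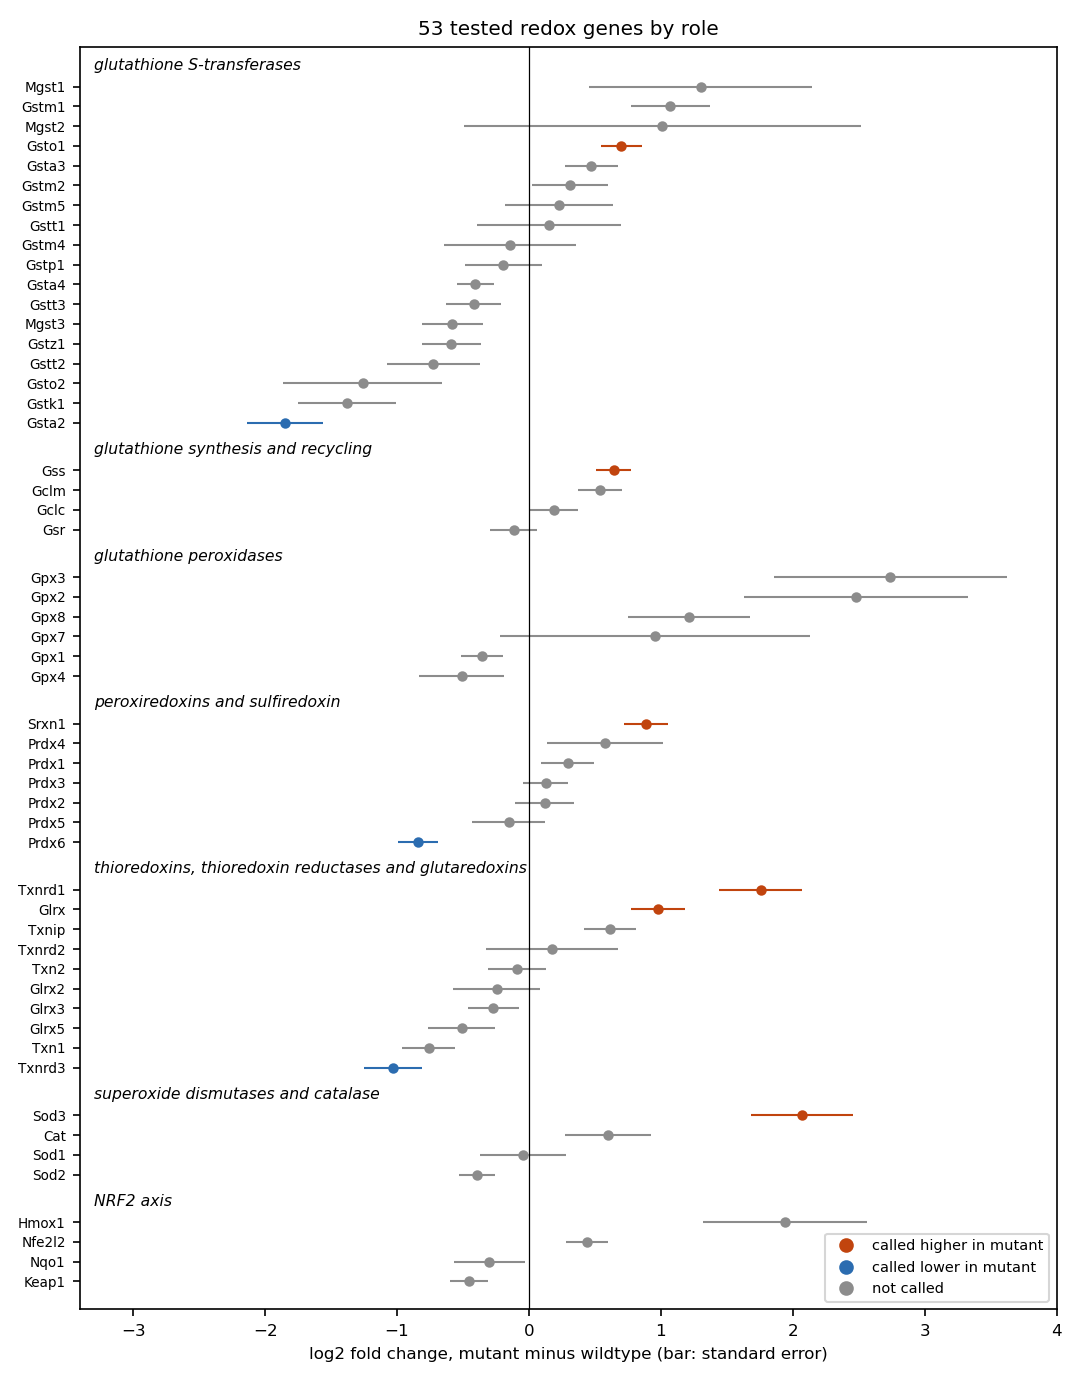
Log2 fold change (mutant minus wildtype, x axis) of the 53 tested redox genes, grouped by role, with bars for the standard error and colours for the call of edgeR's quasi-likelihood test. The 6 genes called higher and 3 called lower are spread over 5 of the 7 role groups, and no glutathione peroxidase and no gene of the NRF2 axis is among them.

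Libraries held 16858005 to 21846406 counts in genes, and 18486 to 22456 genes had at least 1 count. Pax6 RNA averaged 401 ± 49.1 CPM (counts scaled to library size and by TMM) in mutant and 789.7 ± 53.5 CPM in wildtype corneas (SD, n = 3 each), lower by 1.97-fold (adjusted p = 0.0042, edgeR quasi-likelihood test), and the groups did not overlap. W1 stood apart from the other 5 libraries on the first principal component, and M1 was the only library with a female pattern of Xist and Y-linked counts. A sex term therefore fits M1 alone. Results with sex as a covariate nearly repeat those without M1 and do not separate sex from that library. Marker genes of cell types moved with the genotype, while the defining markers of corneal epithelium, led by Krt12, were present in every library. The summed level of 14 detected corneal epithelial markers was 29698 to 36397 CPM in mutant and 54257 to 76721 CPM in wildtype libraries, and that of 14 of 15 conjunctival and goblet markers 16432 to 17947 CPM in mutant and 5180 to 8632 CPM in wildtype libraries (Tff3 was at 0 in all). The sum of 15 keratocyte and stromal markers was 1451 to 5648 CPM in mutant and 527 to 875 CPM in wildtype libraries, and that of 18 leukocyte markers 249 to 324 CPM in mutant and 59.6 to 81.7 CPM in wildtype libraries. Corneal endothelial markers summed to 1896 to 2314 CPM in mutant and 1196 to 1513 CPM in wildtype libraries, and blood vessel markers to 82.6 to 185 CPM in mutant and 11.4 to 69.6 CPM in wildtype libraries. Melanocyte markers overlapped between the groups, with 13.0 CPM in W1 and 204.5 to 450.0 CPM in the other 5 libraries. Skeletal muscle markers summed to 169.9 CPM in W3 and to 0.17 to 9.93 CPM in the other 5 libraries. The part of these marker changes in any redox result was not tested. In whole corneas a lower level cannot be told apart as fewer cells of a type or less RNA per cell.

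Short sequences matching the antioxidant response element, the DNA motif NRF2 binds with small MAF proteins, were looked for because this is the best known regulatory motif of the pathway. RefSeq promoters on GRCm38.p6, running from 250 bases before to 50 bases after a transcription start, were given for 55 of the 63 genes, 73 promoters in all; Prdx6, Gclc, Sod3, Gsta4, Gstt2, Prdx6b, Gsr and Hmox1 were not matched. The motif searched was TGACNNNGC on either strand, which reads GCNNNGTCA when it lies on the strand opposite to the gene. It occurred in 10 of 73 redox promoters, 13.7% (Wilson 95% interval 7.61% to 23.4%), against 12.4% of 32851 promoters of all genes. Counted by gene it was 18.2% of 55 redox genes and 14.0% of 27025 genes. Thus the share of redox promoters that hold these letters lay close to that of promoters in general. Of the 7 called genes with a promoter in the table, Txnrd1 and Srxn1 held a match and Glrx, Gsto1, Gss, Txnrd3 and Gsta2 did not. The windows around the match are shown for the called genes and for the other genes named with values below, 5′ to 3′ on the gene's strand, with the match in capitals.
Txnrd1, chr10:82859089-82859147, + strand: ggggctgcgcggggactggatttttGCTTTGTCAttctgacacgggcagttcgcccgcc
Srxn1, chr2:152105542-152105570, + strand: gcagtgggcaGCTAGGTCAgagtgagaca
Gclm, chr3:122245398-122245456, + strand: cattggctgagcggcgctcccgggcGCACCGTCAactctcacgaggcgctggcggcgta
Prdx1, chr4:116685441-116685499, + strand: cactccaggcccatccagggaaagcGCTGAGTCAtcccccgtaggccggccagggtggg
Nfe2l2, chr2:75704870-75704913, − strand: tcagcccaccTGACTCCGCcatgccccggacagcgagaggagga
Gsta3, chr1:21240439-21240497, + strand: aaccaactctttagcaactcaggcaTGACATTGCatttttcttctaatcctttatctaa
Sod1, chr16:90220681-90220739, + strand: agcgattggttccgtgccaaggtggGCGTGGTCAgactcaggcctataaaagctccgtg
The first base of the match lay 92 bases before the start in Txnrd1, 134 before it in Gclm, 133 in Prdx1, 240 in Nfe2l2, 121 in Gsta3 and 56 in Sod1, and 29 bases after it in Srxn1. A match describes the letters in this window only, and binding was not measured.

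Levels per length were compared as RPKM, the CPM per kilobase of annotated exons. Both groups were dominated by a pair of transferases. Gsta4, which conjugates glutathione to aldehydes from oxidised lipids, was at 1321 ± 104 RPKM in mutant and 1751 ± 155 RPKM in wildtype corneas (SD, n = 3 each), and Gsto1, an omega-class transferase that also reduces dehydroascorbate, at 1539 ± 85.9 RPKM in mutant and 947 ± 141 RPKM in wildtype corneas. Over all 6 libraries Gsta4 ranked 7 and Gsto1 ranked 9 among protein-coding genes by mean RPKM. Together they made up 77.1%, 79.6% and 77.1% of the redox genes' summed RPKM in M1 to M3 and 80.4%, 77.6% and 78.3% in W1 to W3. The summed RPKM of the redox genes was 3669.7 ± 229 in mutant and 3430.1 ± 416 in wildtype corneas (SD, n = 3 each; two-sided exact permutation p = 0.4). These means differed by slightly more than the mutant SD and by less than the wildtype SD. The order of the leading pair differed between the genotypes. The ratio of Gsto1 to Gsta4 RPKM was 1.17, 1.23 and 1.11 in M1 to M3 and 0.549, 0.577 and 0.492 in W1 to W3, and the groups did not overlap (two-sided exact permutation p = 0.1, the smallest that 3 libraries against 3 allow). Each gene's libraries separated by genotype, in opposite directions, so the ratio had to separate too and its p is no further support. After this pair, Txnip, Gpx1, Prdx6 and Prdx5 followed in wildtype corneas by mean RPKM, with Prdx6 above Prdx5 in W1 only.

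**Figure D2:**
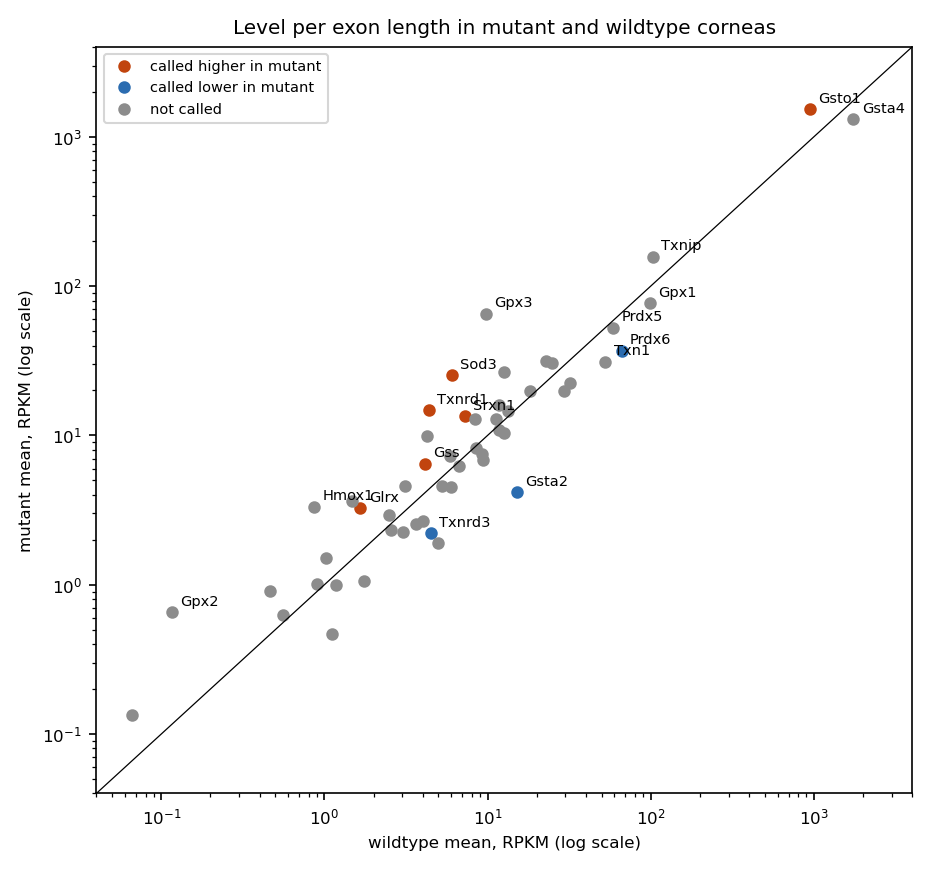
Mean RPKM of each tested redox gene in mutant corneas (y axis) against wildtype corneas (x axis), both on log scales, n = 3 libraries each, with the line of equal levels and colours for the call. Gsto1 and Gsta4 stand alone at the top, on opposite sides of the line, at 1539 and 1321 RPKM in mutant and 947 and 1751 RPKM in wildtype corneas.

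Among 25 glutathione S-transferase genes, which encode the enzymes that attach glutathione to reactive compounds, 18 were tested, and Gsto1 rose and Gsta2 fell. Gsto1 (chr19:47854970-47864790, + strand, GRCm38) stood at 2914, 3221 and 3208 CPM in M1 to M3, against 1795, 2242 and 1710 CPM in W1 to W3. All mutant libraries lay above all wildtype libraries, with W2 the highest of wildtype. Gsto1 was 1.63-fold higher in mutant corneas, a log2 fold change of 0.70 ± 0.16 (SE) (adjusted p = 0.028, edgeR quasi-likelihood test). This call was lost with sex as a covariate (adjusted p = 0.0779) and without M1 (0.0774), M2 (0.114), M3 (0.153) or W3 (0.103), with the direction kept. Its neighbour Gsto2, 743 bases away on chromosome 19, had a log2 fold change of -1.26 ± 0.60 (adjusted p = 0.25, edgeR quasi-likelihood test), and its highest level in any library was 2.95 CPM.

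Gsta2, an alpha-class transferase (chr9:78331018-78355788, − strand), stood at 5.75, 4.72 and 4.32 CPM in M1 to M3, against 11.7, 20.7 and 20.9 CPM in W1 to W3. The groups did not overlap, and W1 was the lowest wildtype library. Gsta2 fell 3.61-fold, a log2 fold change of -1.85 ± 0.29 (adjusted p = 0.0067, edgeR quasi-likelihood test). It was the only one of the 9 called genes that stayed below an adjusted p of 0.05 in all 16 alternatives, with a highest adjusted p of 0.041. Close copies make its count uncertain: 28.4% of its stretches of 100 bases occur also in Gsta1 or in the predicted genes Gm10639 and Gm3776, and read pairs that fit several places were not counted to a gene.

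Gsta4 (chr9:78182774-78209349, + strand), 121668 bases from Gsta2, stood at 1558, 1642 and 1816 CPM in M1 to M3, against 2045, 2430 and 2175 CPM in W1 to W3. The groups did not overlap, but the log2 fold change of -0.41 ± 0.14 did not pass the threshold (adjusted p = 0.12, edgeR quasi-likelihood test). It did in DESeq2 (0.0072), without W1 (0.024) and without M1 and W1 together (0.048). Gsta4 made up 44.1%, 43.3% and 45.7% of the transferases' summed RPKM in M1 to M3 and 62.3%, 60.6% and 64.2% in W1 to W3, with no overlap (exact permutation p = 0.1, the smallest possible). As Gsta4 and Gsto1 had themselves separated by genotype, this share is no further support. Gsta3, the third most abundant transferase, stood at 138, 138 and 136 CPM in M1 to M3, against 68.5, 124 and 105 CPM in W1 to W3, with log2 fold change 0.47 ± 0.20 (adjusted p = 0.20, edgeR quasi-likelihood test). Its mutant libraries were close together and all above wildtype, where W1 was lowest.

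Across the 16 transferases that were not called, log2 fold changes ran from -1.38 to 1.30. The ends nearest the threshold, named after their values were seen, were Gstk1, a transferase of mitochondria and peroxisomes, at -1.38 ± 0.37 (adjusted p = 0.055, edgeR quasi-likelihood test) and Gstm1, a mu-class enzyme, at 1.07 ± 0.30 (adjusted p = 0.060). Gstk1 was at 2.82, 2.05 and 3.47 CPM in M1 to M3 and 4.99, 8.74 and 8.02 CPM in W1 to W3. Gstm1 was at 53.8, 32.1 and 32.1 CPM in M1 to M3 and 13.0, 25.5 and 17.5 CPM in W1 to W3. The libraries of both genes separated by genotype, in opposite directions. Both passed the threshold in DESeq2, Gstk1 at 0.011 and Gstm1 at 0.0065. In all, 10 of the 18 tested transferases had no overlap between the groups, 3 higher and 7 lower in mutant corneas, where the shares over all tested genes were 31.9% in all, 17.1% higher and 14.7% lower. The median log2 fold change of the family was -0.17.

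All 4 genes of glutathione synthesis and recycling were tested, and Gss alone passed, on the higher side. Gss, glutathione synthetase (chr2:155563181-155592810, − strand), stood at 35.9, 38.0 and 40.9 CPM in M1 to M3, against 24.0, 23.3 and 26.2 CPM in W1 to W3. The spread within each group was small beside the gap between them. The log2 fold change was 0.64 ± 0.13, 1.56-fold (adjusted p = 0.021, edgeR quasi-likelihood test), and the call was lost without M2 (0.0758), M3 (0.121), W2 (0.071) or W3 (0.0528). Exons of Acss2 on the other strand overlap 6.68% of the exon length of Gss, and Acss2 itself was 2.34-fold higher in mutant corneas (adjusted p = 0.0046, edgeR quasi-likelihood test). The kit marks strand, but whether the counting used strand is not stated in the labels, so the share of Acss2 reads in the Gss count was not tested.

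Gclm, the modifier subunit of glutamate-cysteine ligase, stood at 28.6, 24.0 and 33.4 CPM in M1 to M3, against 20.1, 20.6 and 18.5 CPM in W1 to W3. The groups did not overlap, and the log2 fold change was 0.54 ± 0.17 (adjusted p = 0.085, edgeR quasi-likelihood test). Gclc, the catalytic subunit and the rate-limiting step, averaged 48.2 ± 5.63 CPM in mutant and 42.4 ± 9.21 CPM in wildtype corneas (SD, n = 3 each), with a log2 fold change of 0.19 ± 0.19 (adjusted p = 0.61). Its groups overlapped, with W1 the lowest library at 31.7 CPM. Gsr, glutathione reductase, averaged 29.9 ± 3.87 CPM in mutant and 32.4 ± 5.65 CPM in wildtype corneas, and its difference was within that spread (log2 fold change -0.12 ± 0.18, adjusted p = 0.76, edgeR quasi-likelihood test).

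No glutathione peroxidase, the enzymes that reduce peroxides with glutathione, was called among 6 tested. By edgeR's unadjusted p, 3 were under 0.05, where 23.8% of all tested genes were, and DESeq2 also called 0. Gpx3, the secreted plasma peroxidase, had the highest log2 fold change of the 53 tested redox genes. It stood at 65.7, 71.1 and 219 CPM in M1 to M3, against 1.70, 35.0 and 16.6 CPM in W1 to W3. The groups did not overlap, but M3 was about 3 times the other mutant libraries and W1 was close to 0. The log2 fold change was 2.74 ± 0.88 (adjusted p = 0.096, edgeR quasi-likelihood test). It passed in limma-voom (0.048), without W1 (0.042) and without M1 and W1 together (0.029). With no low-count filter the adjusted p was 7.9e-52, at a SE of 0.17. That SE is small beside the spread between these libraries, so this value is not taken as support. Gpx3 made up 34.2% ± 14.8 of the family's summed RPKM in mutant and 5.77% ± 4.57 in wildtype corneas (SD, n = 3 each). W1 was also the library with the lowest stromal marker sum, at 527 CPM, and the lowest melanocyte sum, at 13.0 CPM. M3, the highest for Gpx3, had the lowest stromal sum of the mutant libraries at 1451 CPM. The part of these cell types in the Gpx3 result was not tested.

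Gpx1, the cytosolic peroxidase and the most abundant of the family per length, averaged 112 ± 6.27 CPM in mutant and 143 ± 29.5 CPM in wildtype corneas (SD, n = 3 each; log2 fold change -0.36 ± 0.16, adjusted p = 0.22, edgeR quasi-likelihood test), and its groups overlapped. Gpx4, which reduces lipid peroxides within membranes and guards against ferroptosis, averaged 38.5 ± 8.84 CPM in mutant and 54.9 ± 23.5 CPM in wildtype corneas (log2 fold change -0.51 ± 0.32, adjusted p = 0.40). The wildtype libraries of Gpx4 spread from 30.6 to 77.5 CPM and enclosed 2 of the mutant ones. Both Gpx1 (0.041) and Gpx4 (0.049) passed on the lower side without W1. As 25.2% of the stretches of 100 bases of Gpx4 occur elsewhere among annotated transcripts, its count is uncertain. The remaining tested members, Gpx2, Gpx7 and Gpx8, had log2 fold changes of 0.95 to 2.48 at levels below 12 CPM.

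In the peroxiredoxin group, 7 of 8 genes were tested, Srxn1 rose and Prdx6 fell. Srxn1, sulfiredoxin, whose promoter window is shown above (chr2:152105516-152111376, + strand), stood at 40.8, 32.7 and 40.5 CPM in M1 to M3, against 23.9, 18.1 and 19.6 CPM in W1 to W3. No library of one genotype came within the range of the other. Srxn1 was 1.85-fold higher in mutant corneas, with a log2 fold change of 0.89 ± 0.17 (adjusted p = 0.015, edgeR quasi-likelihood test). The call was lost with sex as a covariate (0.0575) and without M1 (0.0591), M3 (0.0799), W2 (0.0544) or W3 (0.050).

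Prdx6, a peroxiredoxin that uses glutathione in place of thioredoxin and acts on phospholipid peroxides (chr1:161240112-161251219, − strand), was at 37.0 ± 2.73 RPKM in mutant and 66.3 ± 11.7 RPKM in wildtype corneas (SD, n = 3 each). Its wildtype mean was the highest of its family only through W1, as Prdx5 was above it per length in W2 and W3. Prdx6 stood at 166, 192 and 176 CPM in M1 to M3, against 382, 302 and 273 CPM in W1 to W3. Mutant libraries agreed closely and lay below all wildtype libraries, of which W1 was highest. This was a 1.79-fold fall, with a log2 fold change of -0.84 ± 0.15 (adjusted p = 0.012, edgeR quasi-likelihood test). This call was lost with sex as a covariate (0.0578) and without M1 (0.0583) or M3 (0.0688). The corneal epithelial marker sum was 29698, 36397 and 29911 CPM in M1 to M3 and 76721, 61864 and 54257 CPM in W1 to W3, so that M2 and W1 were the highest of their groups in both measures; its part in the Prdx6 result was not tested. The share of Prdx6 in the peroxiredoxins' summed RPKM was 25.8%, 24.0% and 21.7% in M1 to M3 and 49.2%, 30.3% and 31.7% in W1 to W3, with no overlap (exact permutation p = 0.1, the smallest possible). As Prdx6 had itself separated by genotype, this share is no further support.

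The peroxiredoxins that work with thioredoxin were not called. Prdx1, the main cytosolic form, averaged 92.7 ± 16.8 CPM in mutant and 75.7 ± 18.0 CPM in wildtype corneas (SD, n = 3 each; log2 fold change 0.29 ± 0.20, adjusted p = 0.44, edgeR quasi-likelihood test). Prdx5, found in mitochondria, peroxisomes and cytosol, averaged 113 ± 23.6 CPM in mutant and 125 ± 44.2 CPM in wildtype corneas (log2 fold change -0.15 ± 0.28, adjusted p = 0.80), and 19.1% of its exon length overlaps Trmt112 on the other strand. The 5 tested peroxiredoxins other than Prdx6 had log2 fold changes of -0.15 to 0.57, and the smallest adjusted p among them was 0.44. Their mutant and wildtype libraries overlapped.

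All 10 genes of the thioredoxin and glutaredoxin group were tested, and Txnrd1 and Glrx rose while Txnrd3 fell. Txnrd1, the cytosolic thioredoxin reductase and a selenoprotein (chr10:82833951-82897712, + strand), stood at 70.3, 107 and 135 CPM in M1 to M3, against 42.3, 30.3 and 19.8 CPM in W1 to W3. Each mutant library was above each wildtype library, M1 the lowest of mutant and W1 the highest of wildtype. In log2 units the change was 1.76 ± 0.32, 3.38-fold (adjusted p = 0.012, edgeR quasi-likelihood test), and the call was lost without M3 (0.0575) or W2 (0.0516). Its promoter at a start inside the annotated gene holds the match shown above.

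Txn1, cytosolic thioredoxin and the substrate of Txnrd1, stood at 32.0, 33.7 and 32.6 CPM in M1 to M3, against 43.6, 74.0 and 48.9 CPM in W1 to W3. The mutant libraries were within 2 CPM of each other and all below wildtype. The log2 fold change was -0.76 ± 0.20 (adjusted p = 0.052, edgeR quasi-likelihood test), and it passed in 7 of 16 alternatives, among them DESeq2 (0.0073) and without W1 (0.015). Reductase and substrate thus stood on opposite sides. The ratio of Txnrd1 to Txn1 RPKM was 0.326, 0.470 and 0.614 in M1 to M3 and 0.144, 0.0608 and 0.0600 in W1 to W3, with no overlap (exact permutation p = 0.1, the smallest possible). Both genes had separated by genotype in opposite directions, so the ratio had to separate too and its p is no further support. Txnip, which binds and inhibits thioredoxin and was the most abundant of the group per length, stood at 627, 362 and 489 CPM in M1 to M3, against 309, 341 and 315 CPM in W1 to W3. Its groups did not overlap, with M2 close to W2, exons of Gm15441 on the other strand overlap 19.4% of its exon length, and the log2 fold change was 0.62 ± 0.19 (adjusted p = 0.091, edgeR quasi-likelihood test).

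Glrx, the cytosolic glutaredoxin that removes glutathione from protein thiols (chr13:75839868-75850154, + strand), stood at 15.1, 19.8 and 19.1 CPM in M1 to M3, against 9.82, 7.89 and 9.73 CPM in W1 to W3. The groups were well apart. The log2 fold change was 0.98 ± 0.21, 1.97-fold (adjusted p = 0.022, edgeR quasi-likelihood test), and the call was lost without M2 (0.10), M3 (0.11), W2 (0.0703) or W3 (0.0609). Txnrd3, a reductase with a glutaredoxin domain best known from testis (chr6:89643988-89675529, + strand), stood at 6.18, 6.83 and 5.76 CPM in M1 to M3, against 13.5, 13.1 and 11.8 CPM in W1 to W3. Both groups were tight. Txnrd3 fell 2.04-fold, with a log2 fold change of -1.03 ± 0.22 (adjusted p = 0.023, edgeR quasi-likelihood test). That call was lost with sex as a covariate (0.080), without M1 (0.0769), M2 (0.0693), M3 (0.108) or W2 (0.0738), and without M1 and W1 together (0.0668).

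The other 7 genes of the group had log2 fold changes of -0.76 to 0.62. Glrx3, a glutaredoxin that carries iron-sulphur clusters, averaged 52.3 ± 4.37 CPM in mutant and 63.0 ± 16.0 CPM in wildtype corneas (SD, n = 3 each; log2 fold change -0.27 ± 0.20, adjusted p = 0.47, edgeR quasi-likelihood test). The mitochondrial pair, Txn2 and Txnrd2, had log2 fold changes of -0.09 ± 0.22 and 0.17 ± 0.50, and both overlapped between the genotypes.

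Among the superoxide dismutases and catalase, Sod3 rose and the other 3 were not called. Sod3, the secreted dismutase that binds to matrix heparan sulphate (chr5:52363791-52371418, + strand), stood at 91.1, 71.5 and 122 CPM in M1 to M3, against 11.9, 36.3 and 19.7 CPM in W1 to W3. All mutant libraries lay above all wildtype libraries. The log2 fold change was 2.07 ± 0.39, 4.20-fold (adjusted p = 0.014, edgeR quasi-likelihood test), and the call was lost only without M3 (0.0688) among the alternatives. Sod3 made up 64.1%, 61.1% and 72.3% of the dismutases' summed RPKM in M1 to M3 and 24.8%, 34.2% and 25.9% in W1 to W3, with no overlap (exact permutation p = 0.1, the smallest possible). As Sod3 had itself separated by genotype, this share is no further support. The stromal marker sum was 5648, 2477 and 1451 CPM in M1 to M3 and 527, 875 and 716 CPM in W1 to W3. Sod3 and the stromal sum were both higher in mutant libraries, and M3 was highest for Sod3 and lowest of the mutant libraries for the stromal sum. The part of stromal content in the Sod3 result was not tested.

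Sod1, the cytosolic copper-zinc dismutase, averaged 32.7 ± 4.34 CPM in mutant and 33.8 ± 15.9 CPM in wildtype corneas (SD, n = 3 each; log2 fold change -0.05 ± 0.33, adjusted p = 0.95, edgeR quasi-likelihood test). Sod2, the mitochondrial dismutase, averaged 45.4 ± 3.76 CPM in mutant and 59.6 ± 7.42 CPM in wildtype corneas (log2 fold change -0.39 ± 0.14, adjusted p = 0.12). Catalase, Cat, stood at 53.0, 20.5 and 26.7 CPM in M1 to M3, against 20.7, 24.5 and 20.8 CPM in W1 to W3. The mean of Cat was set by M1, the other mutant libraries lay in or near the wildtype range, and its log2 fold change was 0.60 ± 0.33 (adjusted p = 0.32, edgeR quasi-likelihood test).

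**Figure D3:**
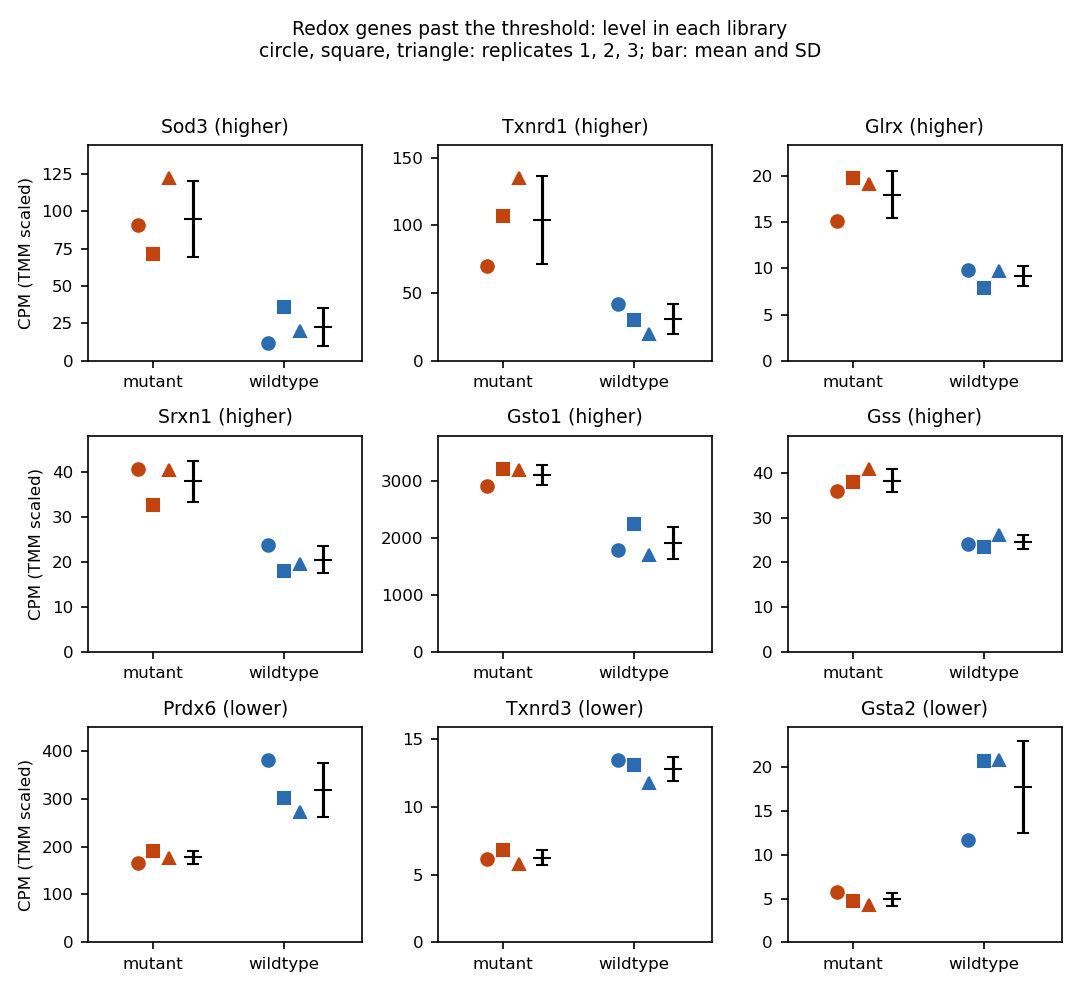
CPM in each library (y axis, from 0) of the 9 redox genes past the threshold, mutant left and wildtype right in each panel, with symbols for replicates 1 to 3 and bars for the mean and SD (n = 3). In each of the 9 panels the mutant and wildtype libraries do not overlap, as in 31.9% of all tested genes. The 9 genes were picked by the test between these same libraries, so their separation is no further support. Among mutant libraries Sod3 lies between 71.5 and 122 CPM and Txnrd1 between 70.3 and 135 CPM.

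None of the 4 genes of the NRF2 axis passed the threshold in edgeR's quasi-likelihood test, where 3 had an unadjusted p under 0.05 (23.8% of all tested genes did) and DESeq2 called 1. Nfe2l2, which encodes NRF2, stood at 57.6, 66.6 and 58.1 CPM in M1 to M3, against 37.4, 54.1 and 43.2 CPM in W1 to W3 (log2 fold change 0.44 ± 0.16, adjusted p = 0.14). Keap1, whose product sends NRF2 for degradation, stood at 28.7, 33.8 and 33.4 CPM in M1 to M3, against 49.2, 42.8 and 39.4 CPM in W1 to W3 (log2 fold change -0.45 ± 0.14, adjusted p = 0.091). Neither gene had any overlap between the groups, with Nfe2l2 on the higher side in mutant corneas and Keap1 on the lower; exons of Gm16754 on the other strand overlap 10.9% of Keap1. Hmox1, haem oxygenase, stood at 4.35, 2.89 and 10.3 CPM in M1 to M3, against 1.48, 2.33 and 0.749 CPM in W1 to W3 (log2 fold change 1.94 ± 0.62, adjusted p = 0.093), and DESeq2 called it (0.022). M3 was more than 2 times the other mutant libraries for Hmox1. Nqo1, the quinone reductase often used as a readout of NRF2, averaged 11.6 ± 1.66 CPM in mutant and 14.3 ± 4.55 CPM in wildtype corneas (SD, n = 3 each; log2 fold change -0.30 ± 0.27, adjusted p = 0.57), with overlap.

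Some properties cut across the roles; these groupings were drawn up after the values were seen. Of the 8 genes whose products work in mitochondria, 0 were called by edgeR's test, with 2 at an unadjusted p under 0.05 and 1 called by DESeq2, and their median log2 fold change was -0.20. Over all tested genes edgeR's test called 10.1%, 23.8% had an unadjusted p under 0.05, and DESeq2 called 15.5%. For only 8 genes the counts lay near these shares. Sod3 and Gpx3, the 2 genes grouped as secreted, were at the high end of the fold changes, at 2.07 and 2.74 on the log2 scale. As these 2 genes were grouped after their values were seen, nothing follows for secreted products in general. Gpx3 was not called (adjusted p = 0.096, edgeR quasi-likelihood test). Of 7 selenoproteins, 1 rose and 1 fell, where 5.59% of all tested genes rose and 4.46% fell. These were Txnrd1 and Txnrd3, which are paralogs.

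Of the 10 genes that were not tested for low counts, Gstm3, Gpx5, Gpx6 and Prdx6b had 0 counts in all libraries, where a count of 0 over a group allows 3 counts, or 0.053 CPM in mutant and 0.0556 CPM in wildtype corneas (counting error only). The other 6 had 4 to 57 counts over all libraries. Among them Gstp3, a pi-class transferase, had 4, 32 and 12 counts in M1 to M3 and 0 in each wildtype library. Over the group this was at least 15.3-fold higher against the limit of 3 counts over the wildtype group, and at least 7.46-fold higher without M2, which held most of the counts. With no low-count filter its adjusted p was 0.0097 (edgeR quasi-likelihood test). That fit follows the spread of single genes poorly: its SE for Gpx3 was 0.17, against 0.88 as reported. The p of Gstp3 is therefore not taken as support. Gstp3 was named after its values were seen.

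The 9 calls kept their direction in all 16 alternatives, which changed the scaling, the test or the filter, removed mitochondrial and structural RNA genes, added sex as a covariate, or left out libraries. The alternatives are not independent, as the sex covariate nearly repeats the fit without M1. The number of calls did not hold. Of the redox genes, 0 rose and 1 fell without M3, against a range of 2 to 7 that rose and 1 to 10 that fell when another library was left out. Without W1 it was 7 and 10, and without M1 and W1 together 7 and 5. DESeq2 called 9 higher and 6 lower. Backgrounds moved too: all tested genes called were 12.9% without W1, 11.4% without M1 and W1, 15.5% in DESeq2 and 5.57% with sex as a covariate, where 4 redox genes were higher and 1 lower. With each library left out in turn, all-gene calls ranged from 340 to 1227 higher and from 271 to 847 lower. The fall in redox calls without M3 is therefore not read as particular to the redox genes.

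**Figure D4:**
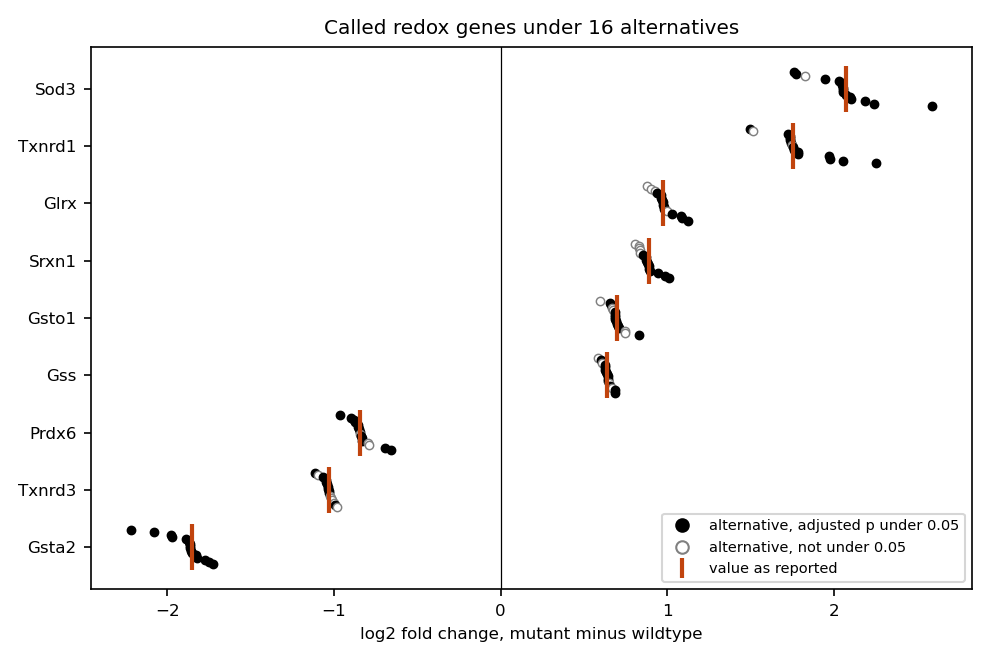
Log2 fold change (mutant minus wildtype, x axis) of the 9 called redox genes under 16 alternatives, filled where the adjusted p was under 0.05 and open where it was not, with a bar for the value as reported. Points stay on 1 side of 0 for every gene; Gsta2 has filled points only, and Txnrd3 has the most open ones, 6 of 16.

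Genes that work beside these enzymes were counted in 6 lists drawn up from general knowledge. Of 24 tested NRF2 target genes outside the redox set, 3 rose and 0 fell. The called share was 12.5%, against a background of 10.1% of all tested genes. All of it was on the higher side, where the background was 5.59% (4.46% on the lower side), but it rests on 3 genes. The median log2 fold change of the list was -0.05. Slc7a11 and Slc3a2 encode the subunits of the cystine importer that feeds glutathione synthesis. Slc7a11 stood at 11.0, 14.7 and 14.3 CPM in M1 to M3, against 1.87, 3.46 and 4.49 CPM in W1 to W3 (log2 fold change 2.02 ± 0.36, adjusted p = 0.011, edgeR quasi-likelihood test; lost without M2, 0.0548, or M3, 0.0607). Slc3a2 stood at 119, 112 and 124 CPM in M1 to M3, against 72.3, 69.0 and 63.8 CPM in W1 to W3 (log2 fold change 0.79 ± 0.11, adjusted p = 0.0044). Neither subunit had overlapping groups. Abcc1, an exporter of glutathione and its conjugates, averaged 72.3 ± 12.9 CPM in mutant and 26.6 ± 0.224 CPM in wildtype corneas (SD, n = 3 each; log2 fold change 1.44 ± 0.15, adjusted p = 0.0014, edgeR quasi-likelihood test). The calls of Slc3a2 and Abcc1 held in all 16 alternatives.

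Of 28 tested genes of glutathione turnover and transport, 5 rose and 1 fell (21.4% called, against 10.1% of all tested genes; median log2 fold change 0.27). Slc1a4 and Slc1a5, neutral amino acid carriers, had log2 fold changes of 1.52 ± 0.24 (adjusted p = 0.0076, edgeR quasi-likelihood test) and 1.34 ± 0.33 (0.038). Idh2, which makes mitochondrial NADPH, was at 1.15 ± 0.20 (0.0097), and Anpep, a peptidase that completes glutathione breakdown outside cells, at 2.21 ± 0.47 (0.024). Mpst, a sulphurtransferase of cysteine metabolism, fell, at -0.67 ± 0.18 (0.050 after rounding, just under the threshold). The call of Slc1a4 held in all 16 alternatives, while that of Idh2 was lost without M3 (0.0633), that of Anpep with sex as a covariate and without M1, M3, W2 or W3 (up to 0.0815), and those of Slc1a5 (up to 0.181) and Mpst (up to 0.180) in 7 alternatives each. Both of these were lost with sex as a covariate and without M1, M2, M3 or W2, Slc1a5 also without W1 and without M1 and W1 together, and Mpst also without W3 and with no composition factors.

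Of 27 listed producers of superoxide or peroxide, 18 were tested, 4 rose and 0 fell (22.2% called, against 10.1% of all tested genes, 5.59% of them on the higher side; median log2 fold change 1.31). Duox1, a dual oxidase that releases hydrogen peroxide at epithelial surfaces, and Duoxa1, the factor that brings it to the membrane, had log2 fold changes of 1.13 ± 0.23 (adjusted p = 0.019, edgeR quasi-likelihood test) and 1.55 ± 0.21 (0.0038). Duox1 stood at 42.7, 24.0 and 31.2 CPM in M1 to M3, against 16.4, 13.1 and 15.2 CPM in W1 to W3. Duoxa1 stood at 31.5, 30.4 and 34.8 CPM in M1 to M3, against 11.3, 13.6 and 8.02 CPM in W1 to W3. The groups did not overlap for either gene. Xdh, xanthine dehydrogenase, was at 0.98 ± 0.23 (0.030). The Duoxa1 call held in all 16 alternatives, although 17.1% of its exon length overlaps Duoxa2 on the other strand; those of Duox1 (up to 0.0713) and Xdh (up to 0.117) were each lost without M1, M3, W2 or W3 and with sex as a covariate, and Xdh also without M2. The list includes phagocyte oxidase genes with low counts, which could pass the filter through the mutant libraries alone, so its median is not evidence of direction. The leukocyte marker sum was also higher in each mutant library, as given above, and its part in this list was not tested.

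Of 27 tested genes with a thioredoxin fold or of methionine sulfoxide repair, 5 rose and 3 fell (29.6% called, against 10.1% of all tested genes; median log2 fold change 0.12). Qsox1, a secreted sulfhydryl oxidase, had the smallest p. It stood at 62.4, 76.2 and 88.2 CPM in M1 to M3, against 12.7, 10.6 and 9.25 CPM in W1 to W3 (log2 fold change 2.80 ± 0.19, adjusted p = 0.00041, edgeR quasi-likelihood test). The lowest mutant library was thus far above the highest wildtype library. Txndc5 and P4hb, protein disulphide isomerases of the endoplasmic reticulum, had log2 fold changes of 0.90 ± 0.11 (0.0028) and 0.97 ± 0.16 (0.0092). The 3 that fell were Nxn, the nuclear relative of thioredoxin known as nucleoredoxin, at -0.55 ± 0.12 (0.024), Txndc17 at -0.70 ± 0.15 (0.027) and Txndc16 at -0.96 ± 0.24 (0.041). The calls of Qsox1 and Txndc5 held in all 16 alternatives and that of P4hb was lost without M3 (0.0571), while each of the 3 that fell was lost with sex as a covariate and without M1, M2, M3, W2 or W3 (up to 0.107, 0.130 and 0.113), and Txndc16 also without M1 and W1 together (0.0732).

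Neither remaining list held a call in edgeR's quasi-likelihood test. Selenoproteins and the selenocysteine machinery had 22 tested genes, 8 of them at an unadjusted p under 0.05 and 2 called by DESeq2, and a median log2 fold change of 0.22. Regulators of NRF2 had 13 tested genes, 3 of them at an unadjusted p under 0.05 and 1 called by DESeq2, and a median of -0.08. Over all tested genes 23.8% had an unadjusted p under 0.05, and the share of the NRF2 regulators was close to that.

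**Figure D5:**
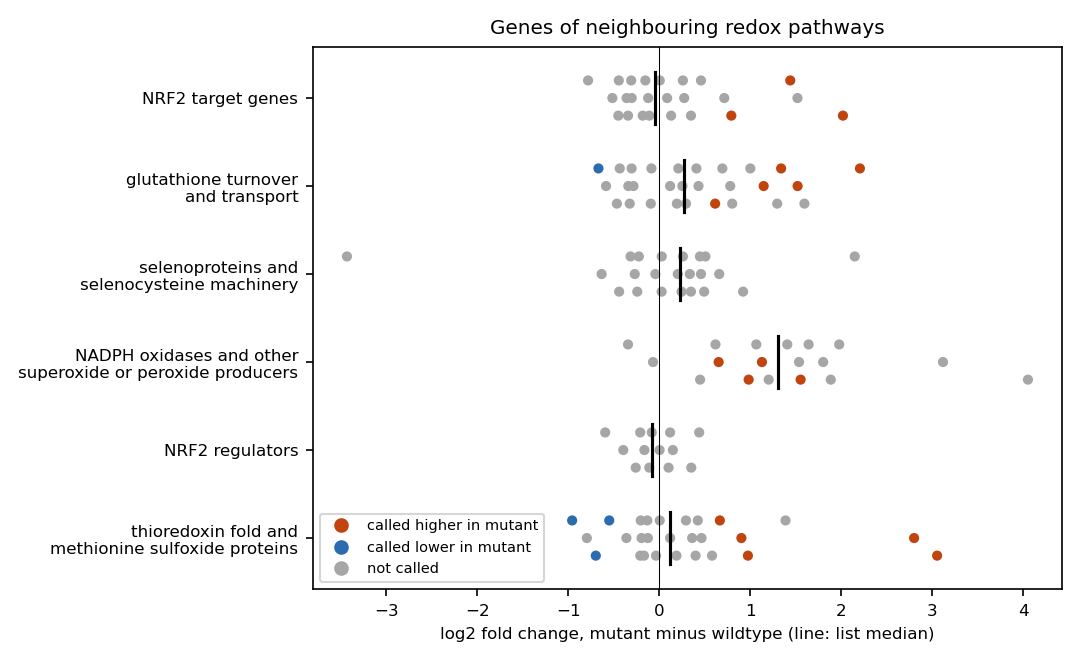
Log2 fold change (mutant minus wildtype, x axis) of each tested gene in the 6 lists of neighbouring pathways, with colours for the call of edgeR's quasi-likelihood test and a line for each list's median. The medians run from -0.08 (NRF2 regulators) to 1.31 (superoxide and peroxide producers), and the thioredoxin fold list holds called genes on both sides, 5 higher and 3 lower.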

How the data were processed

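Per the labels' protocols, total RNA from corneas was made into stranded libraries for very small inputs and read in pairs. Per the submitters' processing notes, the authors used Trim Galore, HISAT2, SAMtools, HTSeq and edgeR with GRCm38; their versions, settings and use of strand are not stated there. Deposited was 1 file of raw, unnormalized read counts per gene for each library. Summary lines that name no gene, 50.3% to 55.7% of the counted pairs per library, were left out.

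Gene names, exons and lengths came from GENCODE M21 on GRCm38 (55240 of 55421 IDs matched); 5 annotated symbols of the rule that are not protein coding were left out. Genotypes were compared with edgeR 4.0.16 in R 4.3.3 (filterByExpr with minimum count 10 and minimum total 15, TMM scaling, quasi-likelihood test, genotype as the only term, Benjamini-Hochberg adjustment over 15209 genes, threshold 0.05). DESeq2 1.42.0 and limma-voom (limma 3.58.1) were alternatives. CPM and RPKM were computed from the deposited counts. Within groups the chi-square of library pairs, per degree of freedom, was 19.6 to 59.6, so no pair was the same counts deposited again. Whether libraries came from separate animals cannot be read from this; each was kept as a replicate because the series design says so. Counts of genes with close copies or overlapping exons are uncertain.

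The rule for the members uses names only, but members and lists were chosen with earlier results of these data known. Named with values are the called members, the 3 most abundant per length of each role group, all genes of synthesis and of the NRF2 axis, and of each neighbouring list up to 4 called genes with the smallest p and those called against its main direction. Gstk1, Gstm1, Gsto2, Gstp3, Gpx2, Gpx7, Gpx8, Sod2, Txn2 and Txnrd2 lie outside this rule; they were chosen once values were known. A gene that the rule would name is not reported here.

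On simulated data for this comparison (5 sets, 15209 genes, 200 changed), 23.6% of genes changed 2-fold and 55.8% changed 4-fold were called, and 9.57% of calls were false.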

Additional observations from a re-analysis of the deposited data

How the results depend on the processing

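Counts below are genes higher or lower in mutant corneas, and the values as reported are 850 and 679 for all genes and 6 and 3 for the redox genes. All-gene calls were 1325 and 1033 in DESeq2, 1588 and 1137 with no low-count filter, and 471 and 376 with sex as a covariate. The fit with no filter follows the spread of single genes poorly, as given above for Gpx3, so its counts are not taken as support. Redox calls were 14 and 7 with no filter, 6 lower in DESeq2, 1 lower with sex as a covariate and 5 lower without M1 and W1, where the redox median was -0.0486. NRF2 targets gave 5 higher in DESeq2, with no filter and without M1 and W1, and on the lower side 4 (upper-quartile scaling and DESeq2), 3 (no composition factors), 1 (voom) and 2 (no filter), against 0. Glutathione turnover gave 2 higher with sex, and on the lower side, against 1, 2 under RLE, upper-quartile scaling, DESeq2, voom, no filter, a filter of 1 CPM and without M1 and W1, and 0 with no composition factors or with sex. Selenoproteins gave 2 higher in DESeq2 and with no filter. The oxidase list gave 8 (DESeq2), 9 (no filter) and 2 (sex) higher. NRF2 regulators gave 1 higher without M1 and W1, and 1 lower there, in DESeq2 and with no filter. The thioredoxin fold list gave 3 higher and 0 lower with sex. With each library left out in turn, all-gene calls ranged from 340 to 1227 higher and 271 to 847 lower, redox calls from 0 to 7 and 1 to 10, the redox median from -0.062 to 0.1765, NRF2 targets from 2 to 5 and 0 to 1, turnover from 1 to 5 and 0 to 1, oxidases from 1 to 6 higher, NRF2 regulators from 0 to 1 each way, and the thioredoxin fold list from 2 to 6 and 0 to 3. The looser motif TGANNNNGC was in 43.8% of redox and 41.3% of all promoters. Log2 fold changes of genes that were not called turned sign for Gclc (-0.0848 without M1 and W1), Prdx5 (0.0099 with sex, and -0.4206 to 0.0338 with a library left out, positive without M1 at 0.0125 and without W2) and Sod1 (0.0613 in voom, and -0.3536 to 0.3412 with a library left out, positive without M2 at 0.0401 and without W2). The cause of these changes was not tested. No scaling moved the median of all genes by 0.1. No paired analysis was possible because replicates 1 to 3 of each genotype were numbered in the order of the samples, and no label ties a mutant library to a wildtype library by litter, animal, batch or day. In these simulated sets most 2-fold changes were missed, so a gene that was not called is not shown to be unchanged.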
